A study of Mus musculus with 6 samples.

Results

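The RNAs described here come from 4 genes of the endoplasmic reticulum (ER): Ssr2, Ssr3 and Ssr4, which encode the beta, gamma and delta subunits of the translocon-associated protein complex (TRAP), and Canx, which encodes the membrane chaperone calnexin. They were chosen as the deposited transcript models with at least 50% of their exon bases in the mm10 span of one of these genes, and 5 of 7959 models met this rule: 1 each for Ssr2, Ssr3 and Ssr4 and 2 for Canx. The values are read counts from 6 RNA libraries of MEL cells, a mouse erythroleukemia line labelled as C57BL/6, all crosslinked with 3.7% formaldehyde for 30 min before chromatin was prepared. Of these, 2 libraries were of the input chromatin, 2 of chromatin isolated with the masked TH59-DB probe, the negative control, and 2 of chromatin isolated with TH59-DB. TH59-DB is a pyrrole-imidazole polyamide, a small DNA-binding molecule, and the series title names telomeres as its target. All groups come from 1 cell line, and no label ties the paired libraries to separate cultures, so p-values measure only the spread between these libraries. A number is given in the labels for 1 library per group (2); the unnumbered one is called number 1 here.

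Secretory and membrane proteins are made on ribosomes docked at the ER, where the Sec61 channel passes the growing chain through or into the membrane. The TRAP complex sits beside that channel and helps many chains to enter it. Calnexin is a lectin chaperone of the ER membrane that holds newly made glycoproteins until they are folded, working with its soluble relative calreticulin. Their mRNAs are translated at the ER surface, outside the nucleus, so a chromatin preparation is not where most of such mRNA is known to reside.

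No model overlapped another model or a second gene span. The Ssr2 model (gene ID 66256) lay on chromosome 3 from 88586862 to 88588113 and joined 2 blocks of 81 and 233 bases across a gap of 938 bases, ending 307 bases before the high end of the span. The Ssr4 model (gene ID 20832) lay on chromosome X from 73787168 to 73789020 and joined blocks of 139 and 183 bases across a gap of 1531 bases, starting 145 bases after the gene's start. The larger Canx model (gene ID 12330) lay on chromosome 11 from 50296296 to 50299284 and joined 5 blocks, 521 bases in all, across gaps of 136 to 892 bases. These blocks are those of the first set of files; the second set gives the same block starts and total length but more block ends than starts, so this model is 1 of 264 joined on chromosome, first start and length. The smaller Canx model, from 50304332 to 50307653, joined 2 blocks of 184 bases each across a gap of 2954 bases. Canx runs on the minus strand, so the 5-block model lay nearer the 3′ end of the gene, 2339 bases from it, and the 2-block model farther upstream. These 4 models had gaps between blocks and carried strand marks, as spliced transcripts do. The Ssr3 model (gene ID 67437) differed: it was a single block of 449 bases on chromosome 3, from 65380982 to 65381430 and 1325 bases from the 3′ end of the span, with the strand given as plus in the first set of files and as unknown in the second, while the gene lies on the minus strand. Whether its reads came from spliced Ssr3 mRNA was not tested. All 5 models lay far from chromosome ends, 71.4 to 96.9 Mb from the outermost gene or model on the distal side of their chromosome and 50.3 to 88.6 Mb from that on the proximal side.

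**Figure D1:**
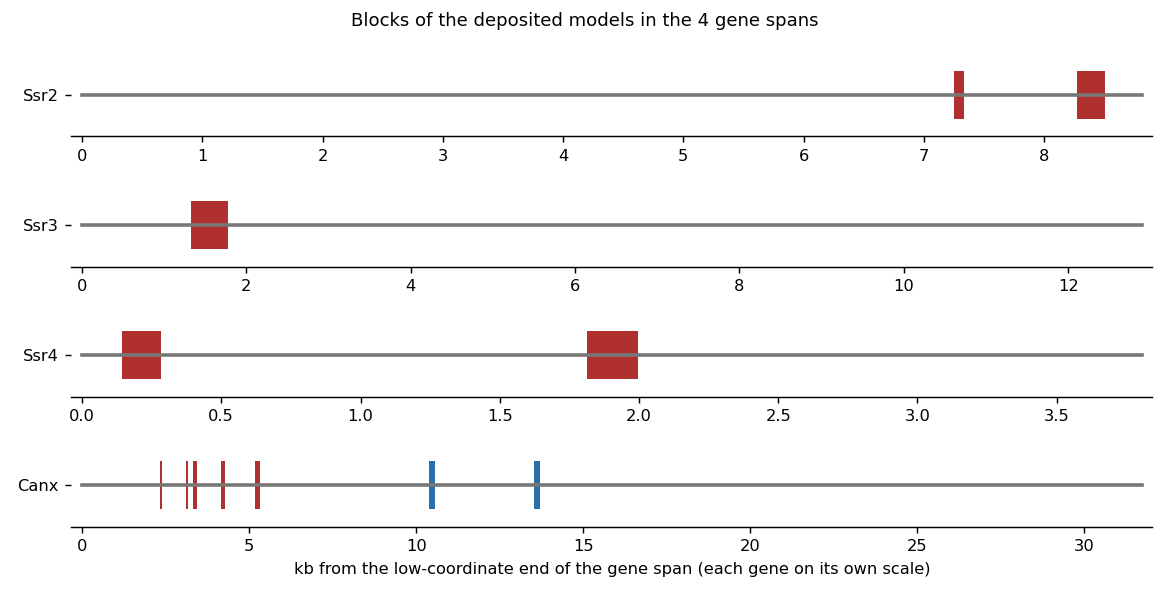
The horizontal axis gives the distance in kb from the low-coordinate end of each gene span, with each gene on its own scale; grey lines are the spans, red bars the blocks of the model with the most reads and blue bars those of the second Canx model. The 5 models cover between 1.16% and 8.46% of their spans, and the Ssr3 model is the one with a single block.

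Promoters of 3 of the 4 genes were in the RefSeq table used (GRCm38.p6), and the 250 bases before each gene's start are shown because the probe recognises DNA and because many genes of ER folding carry a known stress element there. That element, ERSE, is CCAAT and CCACG with 9 bases of any kind between them, bound by NF-Y together with ATF6 or XBP1. Capitals mark CCAAT and CCACG, which are also the ends of ERSE, searched on both strands.
Canx, chromosome 11, 50325674 to 50325923, minus strand: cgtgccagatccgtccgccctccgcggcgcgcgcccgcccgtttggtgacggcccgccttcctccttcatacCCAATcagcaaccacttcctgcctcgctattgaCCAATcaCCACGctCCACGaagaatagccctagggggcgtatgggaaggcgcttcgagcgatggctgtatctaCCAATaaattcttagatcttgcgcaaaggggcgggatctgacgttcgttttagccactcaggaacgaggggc
Ssr3, chromosome 3, 65392554 to 65392803, minus strand: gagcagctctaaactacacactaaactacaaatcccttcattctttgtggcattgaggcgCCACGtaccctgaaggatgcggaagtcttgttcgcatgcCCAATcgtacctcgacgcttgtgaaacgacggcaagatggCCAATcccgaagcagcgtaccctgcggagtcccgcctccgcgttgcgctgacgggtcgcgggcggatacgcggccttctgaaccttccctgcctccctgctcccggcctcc
Ssr4, chromosome X, 73786773 to 73787022, plus strand: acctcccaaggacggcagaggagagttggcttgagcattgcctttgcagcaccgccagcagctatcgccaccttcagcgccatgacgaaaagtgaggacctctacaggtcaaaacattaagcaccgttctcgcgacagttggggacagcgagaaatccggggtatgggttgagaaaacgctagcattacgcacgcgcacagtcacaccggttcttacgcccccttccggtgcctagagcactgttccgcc
The Canx promoter held 1 full ERSE match, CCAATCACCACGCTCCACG, at 145 to 127 bases before the start, which takes in both CCACG of the window and 1 of its 3 CCAAT. The Ssr3 promoter held 2 CCAAT and 1 CCACG but no ERSE, and the Ssr4 promoter held neither letter string. Over all 32851 promoter windows in the table, 0.113% held ERSE, 33.8% CCAAT and 28.3% CCACG. The telomere repeat unit TTAGGG, searched on both strands, was in none of the 3 windows and in 9.32% of all; the XBP1-type element TGACGTGG was in none of the 3 and in 0.563% of all, and ERSE-II, which is ATTGG and CCACG with 1 base between them, in none of the 3 and in 0.0304% of all. These are matches of letters, and no match says only that the letters are not in this window.

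Library totals recovered from the FPKM values ran from 1803723 to 3122558 reads, so 1 read was 0.320 to 0.554 CPM, here counts per 1000000 reads of that total, and 35.7% to 69.2% of the totals lay in the models. The libraries of the captures stood apart within their groups. In masked TH59-DB 1 a single model held 50.8% of the total and 4341 models had 0 reads, against 1404 to 1884 in 4 other libraries. TH59-DB 1 alone had at least 5 reads in every model, while 2606 to 4987 models had fewer in each other library. Whether the models were chosen on it was not tested. No RNA with under 5 reads in TH59-DB 1 is among the models. Shares and medians over all tested models in the comparisons of TH59-DB below hold only for models so limited. Every value is a share of its library, so less of an RNA and more of all others cannot be told apart, nor in bulk libraries can less RNA per cell and fewer cells that hold it. Of 22 listed erythroid genes 10 had a model, with a summed level of 936 and 1324 CPM in input, 601 and 1241 CPM with the masked probe and 618 and 485 CPM after TH59-DB capture. Of 18 listed genes of other blood cells 2 had a model, at 24.1 and 49.4 CPM in input, 4.06 and 39.1 CPM with the masked probe and 42.7 and 7.72 CPM after TH59-DB capture. Neither the listed globin genes nor Alas2 and Slc4a1, which mark maturing erythroid cells, had a model. The part of cell make-up in the results below was not tested.

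Ssr2, Ssr3 and both Canx models had a lower CPM in each TH59-DB library than in any input or masked library. The Ssr4 model did not follow this order. Of all tested models, 14.7% had both TH59-DB libraries below both masked libraries and 23.5% had them below both input libraries. The share of models that met both conditions was not computed. Together the 5 models held 242 and 309 CPM in input, 219 and 316 CPM with the masked probe and 159 and 125 CPM with TH59-DB. The group means were 275 ± 47.4 CPM, 268 ± 68.7 CPM and 142 ± 23.6 CPM (SD, n = 2 each), which puts TH59-DB at 0.515 of the input and masked TH59-DB at 0.972. Counted against the reads of all models other than the 2 largest, a setting chosen after seeing the data, these ratios were 0.457 and 1.57. By CPM, TH59-DB stood at 0.350 of the input for Ssr2, Ssr3 and Ssr4 together and at 0.592 for both Canx models. No single model passed the test in any comparison, as given below. With n = 2 per group this does not show that the levels were the same.

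**Figure D2:**
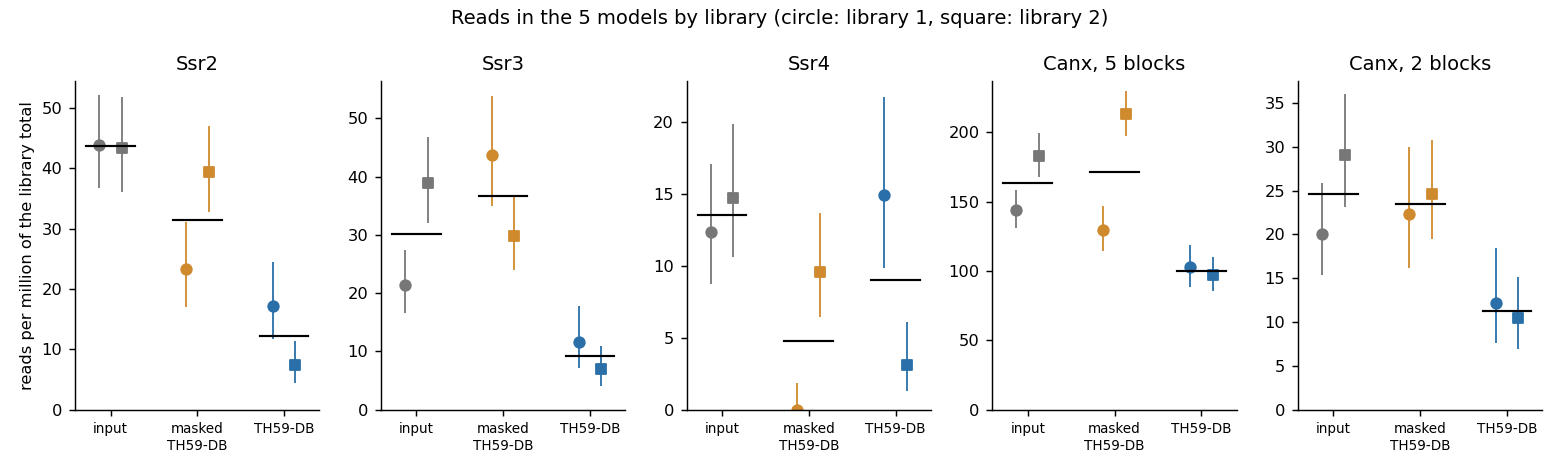
Each panel is 1 model, with CPM on the vertical axis and the 3 groups on the horizontal axis; circles are library 1, squares library 2, vertical lines 95% exact binomial intervals for counting error and black bars group means. In 4 panels both TH59-DB points lie below all other points, while in the Ssr4 panel masked TH59-DB 1 is at 0 and TH59-DB 1 is the highest of all 6.

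Among the TRAP subunits, Ssr2 had 43.9 and 43.4 CPM in the input libraries (131 and 124 reads), 23.3 and 39.4 CPM in masked TH59-DB (46 and 123 reads), and 17.2 and 7.34 CPM in TH59-DB (31 and 19 reads). The 3 groups did not overlap, with input highest and TH59-DB lowest. The input libraries were nearly equal, the masked libraries differed by 1.69-fold and the TH59-DB libraries by 2.34-fold, so the spread was widest in the captures.

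Ssr3 had 21.4 and 38.9 CPM in input (64 and 111 reads), 43.6 and 29.8 CPM in masked TH59-DB (86 and 93 reads), and 11.6 and 6.95 CPM in TH59-DB (21 and 18 reads). Input and masked TH59-DB overlapped, and both TH59-DB libraries lay below them. The highest value of the 6 was in masked TH59-DB 1, a library in which more models were at 0 than in any other.

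Ssr4 had 12.4 and 14.7 CPM in input (37 and 42 reads). In masked TH59-DB it had 0 reads in library 1, where 3 reads would be 1.52 CPM, and 9.61 CPM (30 reads) in library 2. In TH59-DB it had 14.97 CPM (27 reads) and 3.09 CPM (8 reads). The TH59-DB libraries thus differed by 4.84-fold and spanned the input values, with 95% exact binomial intervals of 9.86 to 21.8 CPM and 1.33 to 6.09 CPM that did not meet. These intervals cover counting error only and take each read as an independent count, while no molecular identifiers are named for these reads.

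Calnexin gave the most reads. Its 5-block model had 144 and 183 CPM in input (430 and 522 reads), 130 and 213 CPM in masked TH59-DB (256 and 665 reads), and 103 and 97.3 CPM in TH59-DB (185 and 252 reads). The TH59-DB libraries agreed within 1.05-fold and lay below the other 4, while the masked libraries lay on either side of the input. The 2-block model had 20.1 and 29.1 CPM in input, 22.3 and 24.7 CPM with the masked probe and 12.2 and 10.4 CPM with TH59-DB. Here too both TH59-DB libraries were the lowest, from 22 to 83 reads per library, but the masked libraries lay inside the range of the input.

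The 2 Canx models kept nearly the same proportion to each other. The 5-block model held 87.8% and 86.3% of the Canx reads in input, 85.3% and 89.6% with the masked probe and 89.4% and 90.3% with TH59-DB. The lowest and highest of these, in masked TH59-DB 1 and TH59-DB 2, had 95% exact (Clopper-Pearson) intervals of 80.8% to 89.1% and 86.2% to 93.5%, which overlap. Per kilobase of model, the 5-block model had 4.11 to 6.59 times the reads of the 2-block model in the 6 libraries. The balance between Canx and the TRAP subunits varied more: Canx made up 67.9% and 68.6% of the reads of the 5 models in input, 69.4% and 75.1% with the masked probe and 72.4% and 86.1% with TH59-DB. The value of TH59-DB 2 stood above the other 5, with an exact interval of 81.9% to 89.7% against 66.8% to 77.5% in TH59-DB 1. Whether this share differs between groups was not tested.

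**Figure D3:**
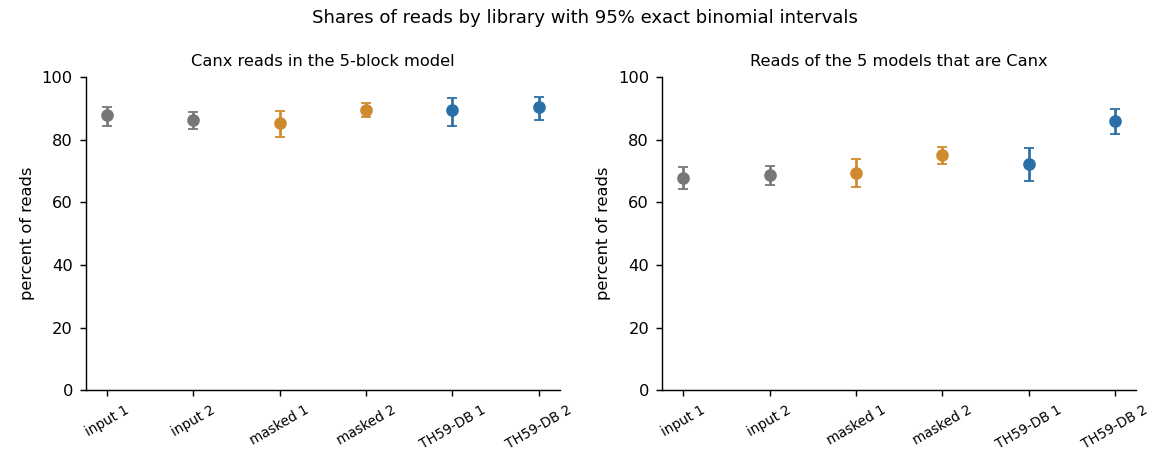
The vertical axes give percent of reads from 0 to 100, with 1 point per library and 95% exact binomial intervals. On the left, the share of Canx reads in the 5-block model lies between 85.3% and 90.3%; on the right, the share of Canx among the reads of the 5 models is 86.1% in TH59-DB 2 and lies between 67.9% and 75.1% in the other libraries.

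Levels of different genes were compared per kilobase of model. In input the order was the 5-block Canx model at 314 ± 52.7 CPM per kb, Ssr2 at 139 ± 1.013, Ssr3 at 67.2 ± 27.5, the 2-block Canx model at 66.8 ± 17.2 and Ssr4 at 42.1 ± 5.09 (SD, n = 2). Ssr3 and the 2-block Canx model did not differ beyond their spread, and the libraries of the other neighbours did not overlap. In TH59-DB the 5-block Canx model had 192 ± 7.10 CPM per kb, Ssr2 39.1 ± 22.2, the 2-block Canx model 30.7 ± 3.398, Ssr4 28.04 ± 26.1 and Ssr3 20.7 ± 7.39. Below the 5-block Canx model, no neighbours in that order were separated. In masked TH59-DB the 5-block Canx model had 329 ± 113 CPM per kb, Ssr2 99.9 ± 36.1, Ssr3 81.8 ± 21.8, the 2-block Canx model 63.8 ± 4.48 and Ssr4 14.9 ± 21.1. There Ssr4 lay below all the others in both libraries, while Ssr2 overlapped Ssr3 and Ssr3 the 2-block Canx model. Among all models, the 5-block Canx model had a higher level per kb than 96.9% to 98.4% of models in every library, and Ssr2 than 89.8% to 95.4% in the input and masked libraries but 74.1% and 71.4% in TH59-DB. Ssr3 had a higher level than 19.0% of models in TH59-DB 1, the library in which no model was near 0, against 60.2% to 92.9% in the others.

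Capture with TH59-DB was first set against capture with its masked control. This comparison asks what the targeted probe carried beyond unspecific binding of a like molecule. In the edgeR fit of all 6 libraries, 76 of 5385 tested models passed at an adjusted p under 0.05, which is 1.41%, all of them higher in TH59-DB. Every tested model had at least 5 reads in TH59-DB 1, while 4987 of all 7959 models had fewer in masked TH59-DB 1. All 5 models of the ER genes were tested and 0 passed; at an unadjusted p under 0.05 the count was 1, which was lower, where 1.69% of tested models were lower and 8.26% higher at that level. DESeq2 called 0. That 1 was Ssr3, with 9.30 ± 3.32 CPM in TH59-DB against 36.7 ± 9.80 CPM in masked TH59-DB, a ratio of 0.253. Its log2 fold change was -1.90 (SE 0.68, 95% interval -3.398 to -0.39, edgeR adjusted p = 0.300), and 77 of the 5385 tested models had a lower fold change. The adjusted p of Ssr3 ran from 0.0292 to 0.987 over 13 alternatives, and it passed only without masked TH59-DB 2, when the control group is masked TH59-DB 1 alone (log2 fold change -2.70).

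Ssr2 followed with a log2 fold change of -1.22 (SE 0.63, 95% interval -2.61 to 0.16, edgeR adjusted p = 0.640). The 2-block and 5-block Canx models had -0.82 (interval -2.30 to 0.65, adjusted p = 0.874) and -0.47 (interval -1.91 to 0.97, adjusted p = 0.949). Ssr4 had 1.05, with an interval from -1.88 to 3.97 (adjusted p = 0.949). Leaving out masked TH59-DB 1 gave -0.025 for Ssr4. Leaving out the second masked library gave 7.11 (adjusted p = 0.0135), when its control is 0 reads in 1 library, so the last value depends on how 0 reads are fitted and is no bound. The 5-block Canx model was at 0.035 without TH59-DB 1. The median over the 5 models was -0.82, against 0.30 over all tested models. Both TH59-DB libraries lay below both masked libraries for 4 of the 5 models, all but Ssr4, where 14.7% of tested models did so.

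Within library number 1 and number 2 taken alone, the log2 difference of TH59-DB from masked TH59-DB was -0.43 and -2.35 for Ssr2 and -1.86 and -2.02 for Ssr3 (log2 of CPM plus 0.5). For the 5-block Canx model it was -0.34 and -1.13, and for the 2-block model -0.85 and -1.20. For Ssr4 it was 4.95 and -1.49. The median of all tested models was 1.95 in number 1 and -1.13 in number 2. The 2 Canx models therefore lay close to the median of number 2 and below that of number 1. Ssr2 and Ssr3 lay below the median in both, and Ssr4 was above it in number 1. In number 1 the control had 0 reads in 4341 of the 7959 models, while TH59-DB 1 had at least 5 reads in every model. The part of these 0 reads in the median of number 1 was not tested.

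The comparison of TH59-DB with input asks which RNAs the capture held above or below the chromatin it was taken from. Of the 5385 tested models 195 passed, or 3.62%: 193 were higher (3.58%) and 2 lower (0.0371%). Here too every tested model had at least 5 reads in TH59-DB 1, while 3348 and 2973 of all 7959 models had fewer in the input libraries. Of the 5 models 0 passed with edgeR, 2 had an unadjusted p under 0.05, both lower, and DESeq2 called 0. At that unadjusted level 5.14% of tested models were lower and 8.86% higher. Ssr2 had 12.3 ± 6.96 CPM in TH59-DB against 43.7 ± 0.318 CPM in input, a ratio of 0.281. Its log2 fold change was -1.97 (SE 0.64, 95% interval -3.37 to -0.56, edgeR adjusted p = 0.156). Ssr3 had a ratio of 0.308 and a log2 fold change of -1.67 (SE 0.68, interval -3.16 to -0.17, edgeR adjusted p = 0.279).

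The 2-block Canx model had -1.04 in this comparison (interval -2.52 to 0.43, edgeR adjusted p = 0.595), Ssr4 had -0.83 (interval -3.70 to 2.05, adjusted p = 0.918) and the 5-block Canx model -0.63 (interval -2.07 to 0.82, adjusted p = 0.831). The last was 0.077 without TH59-DB 1. Their median was -1.04, against 0.03 over all tested models. Both TH59-DB libraries lay below both input libraries for 4 of the 5 models, again all but Ssr4, where 23.5% of tested models did so. In library number 1 the log2 differences were -1.33 for Ssr2, -0.85 for Ssr3, -0.49 and -0.70 for the 5-block and 2-block Canx models and 0.26 for Ssr4, against a median of 0.90 over all tested models. In number 2 they were -2.49, -2.40, -0.91, -1.44 and -2.08 in the same order, against a median of -0.97. This comparison and the previous one share the TH59-DB libraries.

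The comparison of masked TH59-DB with input gives the background of the control probe. Here 14 of 5385 models passed (0.26%), all higher; with library totals alone as the scaling, 90 were higher and 18 lower. None of the 5 passed with edgeR or DESeq2, and 0 had an unadjusted p under 0.05, where 2.95% of tested models were lower and 3.86% higher. Ssr2 had a log2 fold change of -0.74 (interval -2.09 to 0.60, edgeR adjusted p = 0.846) and Ssr3 0.23 (interval -1.19 to 1.65, adjusted p = 0.974). The 5-block and 2-block Canx models had -0.16 (interval -1.59 to 1.28, adjusted p = 0.984) and -0.22 (interval -1.66 to 1.22, adjusted p = 0.977), against a median of -0.26 over all tested models. Both Canx values changed sign with another scaling: with DESeq2 size factors in edgeR they were 0.10 and 0.071. Ssr4 had -1.87 (interval -4.82 to 1.07, adjusted p = 0.838), and -8.04 without masked TH59-DB 2 (adjusted p = 0.00256), again against 0 reads in a single library. Ssr3 was -0.40 without masked TH59-DB 1. Both masked libraries lay below both input libraries for 2 of the 5 models, Ssr2 and Ssr4, as for 14.4% of tested models.

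**Figure D4:**
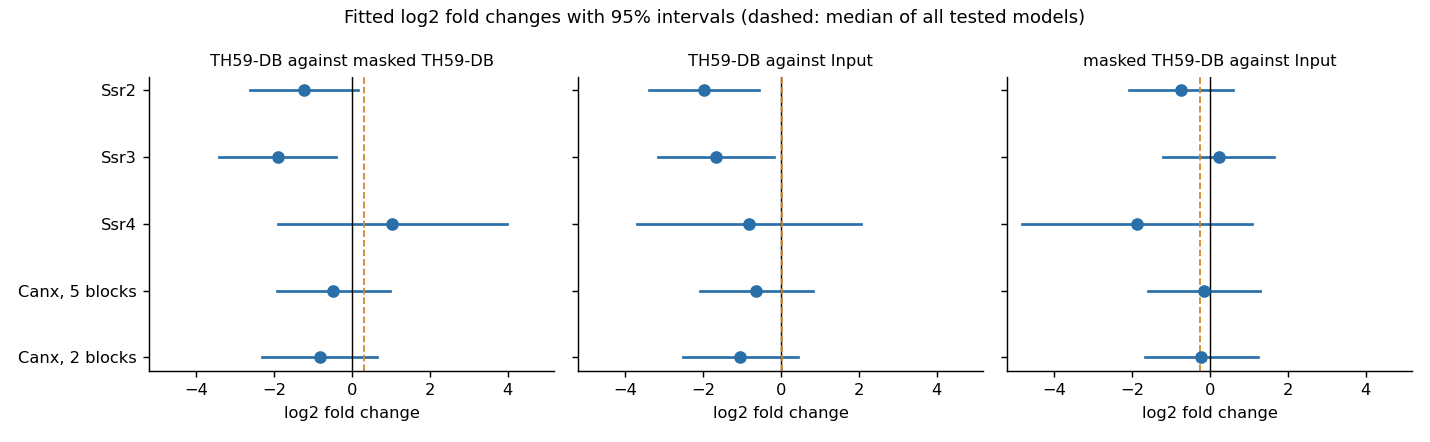
The horizontal axes give the fitted log2 fold change of each comparison, with points for the 5 models, lines for 95% intervals and a dashed line for the median of all 5385 tested models. Only Ssr3 against the masked probe, and Ssr2 and Ssr3 against input, have intervals that leave out 0, and none of these passed after adjustment over all models.

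The likeness of profiles was measured as the root mean square difference between log2 values (CPM plus 0.5) over the 6 libraries, each centred on its own mean, as a description. Among the 5 models, the 2 Canx models were closest, at 0.24. Ssr2, Ssr3 and the Canx models lay 0.46 to 0.67 from one another, while Ssr4 lay 1.69 to 2.17 from each of them. All distances from Ssr4 include masked TH59-DB 1, where it had 0 reads and its value is set by the added 0.5. There its log2 difference from input 1 was -4.69, against -0.90 for Ssr2. The part of this library in the distances was not tested. Of the models in other genes, those closest to the 5-block Canx model were in Eif3a, a subunit of translation initiation factor 3, at 0.08, Myh10, a non-muscle myosin heavy chain, at 0.09, and Prrc2c at 0.11, where the median over 4852 models was 1.13. Closest to Ssr2 were Cdc37, a partner of the chaperone Hsp90, at 0.21, the kinase gene Stk40 at 0.21 and Prrc2a at 0.26 (median 1.32). Closest to Ssr3 were Ptges3-ps, a pseudogene whose reads may belong to its parent gene, at 0.12, Ybx3, a cold-shock domain protein, at 0.21 and Eif3c, another subunit of initiation factor 3, at 0.21 (median 1.49). Closest to Ssr4 were the zinc finger gene Zfp106 at 0.15, the G protein subunit gene Gnb2 at 0.24 and the nuclear receptor gene Nr1h2 at 0.24 (median 1.48).

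In 8 lists of other ER genes, 46 of 131 genes had a model and 43 genes with 64 models were tested. Values of a named gene here and below are those of its model with the most reads. With edgeR 0 of the 64 passed in any of the 3 comparisons, and DESeq2 called 0 in each. At an unadjusted p under 0.05 there were 3 lower in TH59-DB than in masked TH59-DB, 1 lower than in input and 0 between masked TH59-DB and input; over all tested models the lower shares at that level were 1.69%, 5.14% and 2.95%. Below 0 were 34, 46 and 46 of the 64 log2 fold changes in the 3 comparisons, in the order given above. Medians of the 64 were -0.18, -0.67 and -0.46, against 0.30, 0.03 and -0.26 over all tested models. The share of all tested models below 0 was not computed, for these counts or for those of single lists below. Some genes have more than 1 model, so these counts are not counts of genes. Both TH59-DB libraries lay below both masked libraries for 14 of the 64 and above them for 0, where 14.7% of all tested models lay below and 16.1% above. Against input 26 of the 64 lay below and 5 above, where 23.5% and 22.5% of all tested models did.

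Of the translocon list, 3 of 16 genes had models. Ssr1, the alpha subunit of TRAP and the fourth of the complex, had 63.6 and 104 CPM in input, 45.7 and 110 CPM with the masked probe and 43.2 and 32.1 CPM with TH59-DB. Both TH59-DB libraries were the lowest, but 43.2 CPM in TH59-DB 1 was close to 45.7 CPM in masked TH59-DB 1. Of all tested models, 14.7% had both TH59-DB libraries below both masked libraries and 23.5% below both input libraries. The log2 fold changes of Ssr1 were -0.75 (edgeR adjusted p = 0.874) against the masked probe and -1.09 (adjusted p = 0.508) against input. Sec62, a partner of Sec61, had 0.53 against the masked probe and -0.039 against input. Nomo1, a translocon-associated membrane protein, had 4 models. The Nomo1 model with the most reads had -2.11 against the masked probe (edgeR adjusted p = 0.317) and -1.0005 against input. For masked TH59-DB against input that model had 1.11. Other Nomo1 models reached 0.71 against the masked probe, and -1.77 and 1.30 for masked TH59-DB against input. Of 10 genes of the signal recognition particle, which brings ribosomes to the ER, Srp68 alone was tested, with 1.195 against the masked probe, where 1 library had 0 reads, and -1.21 against input (edgeR adjusted p = 0.901 and 0.771).

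Of oligosaccharyltransferase and signal peptidase genes, which modify and trim the entering chain, 8 of 18 were tested, and 8 of their 13 models lay below 0 against input (median -0.33). Rpn1, a subunit of the transferase, had 40.9 ± 17.5 CPM in input, 34.97 ± 20.7 in masked TH59-DB and 12.5 ± 5.198 in TH59-DB (SD, n = 2; log2 fold change against input -1.43, edgeR adjusted p = 0.453). Ostc had -1.49 and Stt3b -1.73. Of the membrane insertion list 3 of 16 genes were tested (median -0.10 over 4 models), with Bag6 at -1.40, Get4 at -0.24 and Sgta at 0.28.

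In the calnexin cycle, 6 of 13 genes with 8 models were tested, and 7 of the 8 lay below 0 against input, with a median of -1.28. Calr, which encodes calreticulin, had 139 and 209 CPM in input, 117 and 246 CPM with the masked probe and 52.7 and 84.2 CPM with TH59-DB. Both TH59-DB libraries lay below the other 4 (log2 fold change against input -1.12, edgeR adjusted p = 0.599, and against the masked probe -0.95, adjusted p = 0.847). Of all tested models, 14.7% had them below both masked libraries and 23.5% below both input libraries. Prkcsh, a subunit of glucosidase II, had -1.16 and Pdia3, the disulfide isomerase that works with calnexin, had -1.50 against input. Of ER chaperones and oxidoreductases, 13 of 15 models of 9 genes lay below 0 against input (median -0.78). Hsp90b1, the ER form of Hsp90, had -0.78, Hspa5, known as BiP, -0.88 and Txndc5 -0.94.

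The regulators of the unfolded protein response had the highest median of the 8 lists against input, 0.18 over 7 models of 4 genes, with 3 of 7 below 0. Ddit3, which encodes CHOP, had 26.5 and 43.1 CPM in input and 45.5 and 30.9 CPM in TH59-DB, and these overlapped (0.18, edgeR adjusted p = 0.965). Ppp1r15a had 0.98 and Ppp1r15b -1.27. Of the genes of ER exit and retrieval 9 were tested, with 6 of 10 models below 0 against input (median -0.73), among them Tmed2 at -1.50, Tmed10 at -1.20 and Lman1 at -1.17. In a list of abundant mRNAs of cytosolic proteins, 32 of 35 models lay below 0 against input, with a median of -1.70; 0 passed with edgeR, 18 had an unadjusted p under 0.05, all lower, where 5.14% of all tested models were lower. DESeq2 called 3, all lower, against 37 lower calls over all 7959 models. Eef1a1 had -2.75 (edgeR adjusted p = 0.151), Hsp90ab1 -1.59 and Ncl -0.83, so 1 of these 3 lay below all 5 models of the ER genes. By the model with the most reads, Actg1 (-2.38), Hspa8 (-2.30), Eef2 (-2.23), Actb (-2.12) and Pfn1 (-2.03) did so as well. The remaining genes of this list did not. Whether the ER genes and this list differ was not tested.

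**Figure D5:**
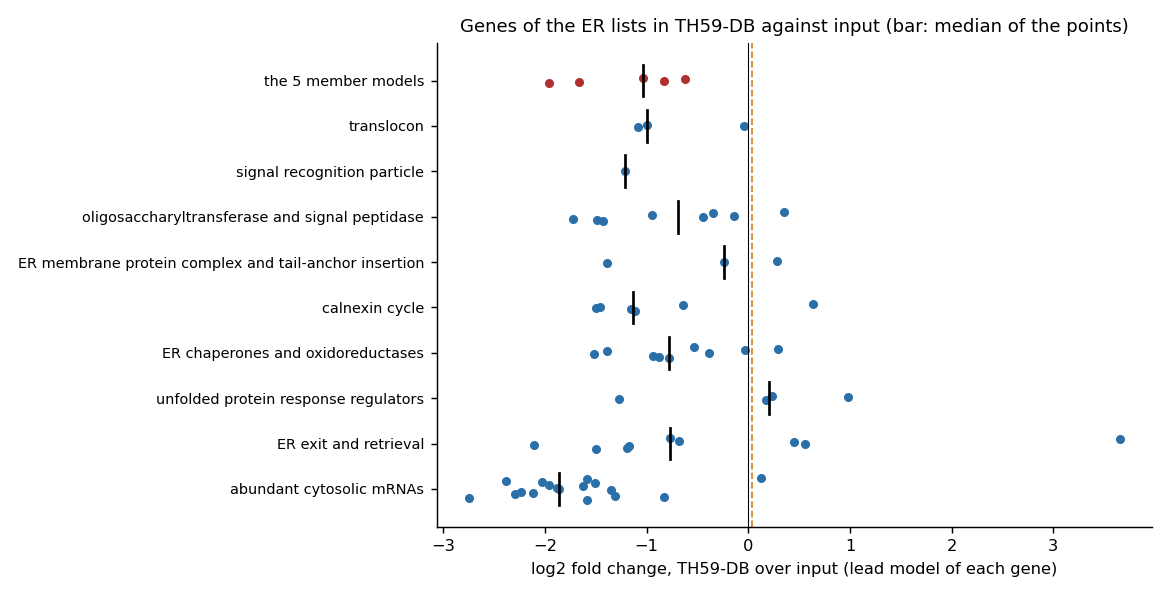
The horizontal axis gives the log2 fold change of TH59-DB over input; each point is the model with the most reads of 1 gene (all 5 models in the top row), bars are medians of the points and the dashed line is the median of all tested models. The 5 models lie between -1.97 and -0.63, inside the range of the ER lists, and the points of the abundant cytosolic mRNAs reach -2.75.

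The ERSE found before Canx was also in the windows of 7 other genes of the ER lists, 8 of the 104 ER genes in the promoter table (7.69%), against 35 of all 27025 genes (0.130%). These lists hold known targets of the stress response, so this count is a description. The genes were Calr, Canx, Creld2, Dnajc3, Hsp90b1, Hspa5, Pdia6 and Syvn1, and 5 of them had a model. Against input, Calr had -1.12, Hspa5 -0.88, Hsp90b1 -0.78, the 5-block Canx model -0.63 and Creld2 -0.38, and none passed with edgeR or DESeq2.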

How the data were processed

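RNA from input, masked TH59-DB and TH59-DB chromatin was sequenced in 2 libraries each with a stranded total RNA kit, per the labels. The deposited counts are whole reads per assembled model, per the file headers. The authors' deposited FPKM values equal count over model length and a library total, which was recovered from them. In most files a count of 0 stands beside the FPKM that 1 read would have, so only counts were tested. The submitters' processing notes name cutadapt, HISAT2, Cufflinks and featureCounts and the build mm10, with no roles; the strand setting is not given in the sources used here. The 2 sets of files were joined on all exons (7695 models) or, where end lists differed, on chromosome, first start and length (264). Gene spans, without exons, came from RefSeq GRCm38.p6.

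Counts were tested with edgeR 4.0.16 in R 4.3.3 (filterByExpr, TMM on the recovered totals, robust quasi-likelihood F-test, 2-sided, Benjamini-Hochberg over all models, threshold 0.05), in 1 fit of all 6 libraries. The standard error is the log2 fold change over the root of F. On TH59-DB against input data simulated with the common dispersion of these libraries, the fit returned median fold changes close to those put in but called few of them. Alternatives were other scalings, no filter or a stricter one, DESeq2 1.42.0, the replicate number as a block and each library left out. CPM uses the recovered totals. The members and lists were chosen with earlier results of these data known. Named were all member models, the 3 closest genes by profile and the 3 most abundant genes of each list. Also named were the ER genes with ERSE and the genes of the cytosolic list that lay below all member models against input.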

Additional observations from a re-analysis of the deposited data

How the results depend on the processing

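Leaving out 1 library at a time moved the models that passed from 76 to between 32 and 1720 for TH59-DB against masked TH59-DB, from 195 to between 102 and 756 against input, and from 14 to between 0 and 1413 for masked TH59-DB against input. The lowest counts came without TH59-DB 2 (32 and 102), the highest (1720, 756 and 1413) when the second masked library was left out, and the 0 without either input library (0, with 170 and 202 at an unadjusted p under 0.05). Members that passed numbered 0 to 2, 0 to 0 and 0 to 1 in the 3 comparisons, and models of the ER lists 0 to 16, 0 to 1 and 0 to 20; the highest counts above 0 came without masked TH59-DB 2, the 1 also without masked TH59-DB 1. Against masked TH59-DB the count was 167 with DESeq2 size factors in edgeR, 155 with library totals alone, 155 with sums of model counts, 206 with no filter, 0 with at least 10 reads in 4 libraries (236 at an unadjusted p under 0.05) and 245 with DESeq2. Against input it was 312 with no filter, 81 with the stricter filter and 364 with DESeq2. For masked TH59-DB against input it was 57, 108 and 50 with the 3 scalings, 113 with no filter and 122 with DESeq2. No member passed under these settings. The cause of these moves was not tested.

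With the replicate number as a block (replicate block), 191, 363 and 106 models passed, and 0 members. Deviations of same-numbered libraries correlated at -0.00208, 0.0932 and 0.110. No threshold for pairing was set, so these values do not settle whether such libraries are pairs. Same-numbered libraries also share a set of files, and the labels name no shared culture or day for them. Splits of higher against lower calls moved with it: 245 higher and 118 lower against input, and 88 and 18 for masked TH59-DB against input; library totals alone gave 90 and 18 there.

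Of 195 fold changes of members under alternatives, 174 kept direction and call, 3 passed newly and 18 reversed. The 3 were Ssr3 and Ssr4 against masked TH59-DB and Ssr4 for masked TH59-DB against input, all without masked TH59-DB 2. For masked TH59-DB against input, the reversed values of the 5-block Canx model were 0.10, 0.069 and 0.11 with the 3 scalings, 0.027 with the stricter filter and 0.090 with DESeq2, and those of the 2-block model 0.071 with DESeq2 size factors in edgeR, 0.080 with sums of model counts and 0.062 with DESeq2. With 1 library left out, the values that turned in sign ran from -0.31 to 0.14 (5-block Canx), -0.41 to 0.33 (2-block Canx) and -0.40 to 1.03 (Ssr3) in that comparison. Against masked TH59-DB they ran from -0.025 to 7.11 (Ssr4) and -1.15 to 0.035 (5-block Canx), and against input from -1.46 to 0.077 (5-block Canx). DESeq2 size factors in edgeR moved the median of all models by 0.20, 0.37 and 0.19 in the 3 comparisons. Other settings moved it more, in part over other sets of models. With DESeq2, over 7959 models, the shifts were 1.13, 1.23 and 0.26. Without masked TH59-DB 2 the median moved by 4.79 against masked TH59-DB and by -1.27 for masked TH59-DB against input. The exact binomial intervals of Ssr4 do not meet between the masked libraries or between the TH59-DB libraries. The same held for Ssr2, with 17.1 to 31.1 and 32.7 to 47.0 CPM in masked TH59-DB. In TH59-DB the Ssr2 intervals were 11.7 to 24.4 and 4.42 to 11.5 CPM. Intervals of the 5-block Canx model did not meet between the masked libraries or between the input libraries. Those of Ssr3 did not meet between the input libraries.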
